A study of Bos taurus with 16 samples.

Results

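GPLD1 encodes a secreted phospholipase D that cuts the glycosylphosphatidylinositol (GPI) anchor, the lipid tail by which many proteins are held to the outer face of the cell membrane. The gene was represented by every probe set (the group of array probes that reads 1 transcript) whose only gene symbol in the platform annotation is GPLD1. There was 1 such probe set among 24016 that are not controls, and GPLD1 was 1 of 9155 genes named in this way, so the gene has no further reading on this array. Its gene number in the annotation, 287025, matched GPLD1 in RefSeq, on bovine chromosome 23. The gene was chosen from values of these same arrays. Which contrast chose it is not recorded, and its lower level in subclinical endometritis at insemination is treated as that contrast and described with no test.

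The arrays carried RNA of superovulated cows from a herd study of 49 animals. Endometrium was brushed from the uterine lining 2 h before insemination (day 0) and again just before the uterus was flushed on day 7. A brush sample with 0 polymorphonuclear cells placed its cow in the healthy group (HE), and any such cells placed it in the group with subclinical endometritis (SE). Day 0 endometrium came as 3 HE and 3 SE pools and day 7 endometrium as 2 HE and 3 SE pools. Flushed blastocysts came as 2 pools from HE and 3 pools from SE donors, sorted by donor status at flushing, with 10 embryos to a pool. Superovulation was shared by all groups, each array read a pool, and the number of cows behind a brush pool was not stated. The spread between arrays is therefore one between pools, not between cows.

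GPI anchors are built step by step in the endoplasmic reticulum, joined to the protein by the GPI transamidase complex, trimmed on the way to the surface, and can be cut again outside the cell. Anchored proteins include complement regulators, receptors, ephrins and ectoenzymes. The GPLD1 protein is abundant in blood plasma, where it travels with high density lipoproteins, and cattle serum is a classic source of it. The uterine lining at oestrus is under oestrogen, and by day 7 under progesterone from the corpus luteum.

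In day 0 endometrium GPLD1 was well above the level of 4 on the log2 scale that was used to filter dim probe sets. It read 9.06, 8.54 and 8.20 in the 3 HE pools, a mean of 8.60 ± 0.44 (SD, n = 3). In the 3 SE pools it read 7.34, 6.56 and 6.13, a mean of 6.68 ± 0.61 (SD, n = 3). Each SE pool was below each HE pool, and the nearest pair, HE replicate 3 and SE replicate 1, was 0.86 apart. The mean in SE differed by -1.92 (standard error 0.30), which is 3.79-fold, and was the 8th lowest difference among 13421 probe sets kept in endometrium. Among those probe sets 9.24% likewise had every SE pool below every HE pool, and limma called 0.0224% in either direction at an adjusted p under 0.05. The gene is taken as chosen by this contrast, so nothing is read from its place in it.

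**Figure D1:**
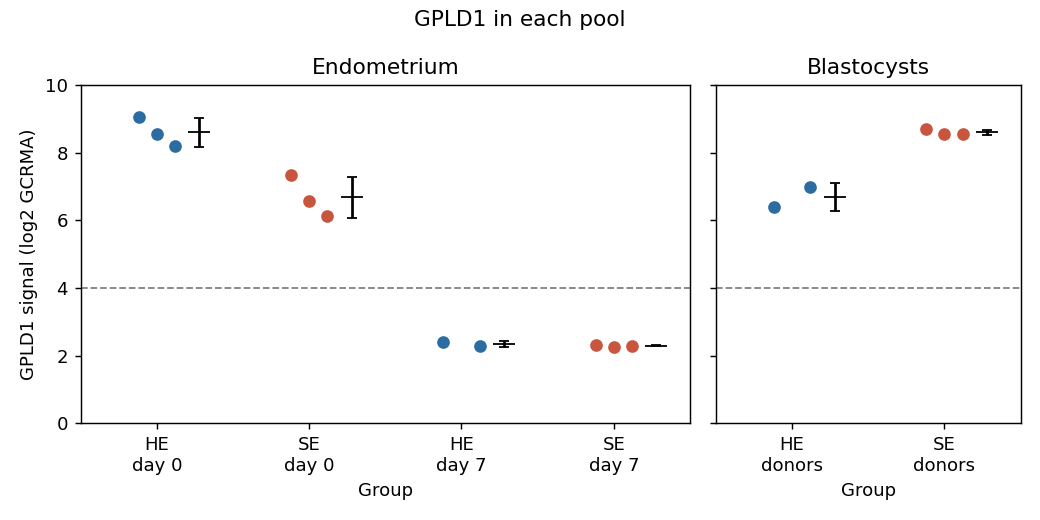
GPLD1 signal on the log2 scale in each pool (points), with the mean and SD of each group beside them (bar), for endometrium on day 0 and day 7 and for blastocysts of HE and SE donors. The dashed line marks the filter level of 4, above which all day 0 and blastocyst pools lie and under which all 5 day 7 endometrium pools lie; the tissues may have been normalized apart, so heights are not compared between the panels.

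Several cell markers and 1 RNA control moved with the same day 0 grouping. Fewer cells of a type and less RNA per cell cannot be told apart in such brushings. The mean log2 level of 10 of 12 listed macrophage markers ran from 5.05 to 5.29 in the HE pools and from 5.61 to 5.70 in the SE pools. That of 4 of 11 listed ciliated cell markers ran from 6.14 to 7.19 and from 7.30 to 8.89. Both lists were thus higher in each SE pool than in each HE pool. The share of all probe sets with every SE pool above every HE pool was not counted for day 0. Neutrophil markers (4 of 15 kept) ran from 5.79 to 8.93 in HE and from 7.85 to 11.19 in SE, and these ranges overlap. The HE pool with the highest neutrophil level, replicate 1 at 8.93, had the highest GPLD1 of its group, and the SE pool with the highest, replicate 3 at 11.19, had the lowest. Epithelial markers (13 of 15 kept; 10.96 to 11.14 and 11.10 to 11.42) and stromal fibroblast markers (11 of 13; 7.15 to 8.42 and 8.16 to 8.94) overlapped between the groups. The EIF4E control, its 3' minus its 5' probe set, which reads RNA quality, ran from 3.70 to 3.85 in HE and from 3.88 to 4.27 in SE, so it did not overlap either. The same control of GAPDH ran from 0.06 to 0.14 in HE and from 0.03 to 0.58 in SE. That of cyclophilin ran from 0.64 to 0.98 and from 0.74 to 1.17, so these controls overlapped. Lymphocyte markers (7 of 13) ran from 5.86 to 6.28 in HE and from 6.24 to 7.00 in SE. SE replicate 2 stood apart, with a mean correlation of 0.956 with the other day 0 arrays against 0.973 to 0.976, and without it the GPLD1 difference was -1.86. The part of these markers in the GPLD1 difference was not tested.

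By day 7 the GPLD1 signal had fallen below the filter level in every endometrium pool. It read 2.40 and 2.28 in the HE pools and 2.30, 2.27 and 2.29 in the SE pools, with means of 2.34 ± 0.08 (SD, n = 2) and 2.28 ± 0.02 (SD, n = 3). The HE and SE pools overlapped, and no fold is given for a difference between levels that both lie under the filter. limma put the SE minus HE difference at -0.06 (standard error 0.33, adjusted p = 1.00). In that contrast limma called 0 of 13421 probe sets, or 0%, while 477 had an unadjusted p under 0.05.

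From day 0 to day 7 GPLD1 in HE endometrium fell by 6.26 on the log2 scale (standard error 0.33). Every HE pool of day 7 was below every HE pool of day 0. The share of probe sets split in this way was not counted for either day contrast. In this contrast limma called 23.2% of the 13421 probe sets lower and 21.8% higher, 45.0% in all. In SE endometrium GPLD1 fell by 4.39 (standard error 0.30), again with no overlap. There 24.1% were called lower and 26.0% higher, 50.1% in all. Both contrasts use the day 0 pools of the contrast that chose the gene, and GPLD1 passed the endometrium filter only through those pools. Its falls are therefore given as values with no test.

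Since the day 7 readings lie under the filter, the size of the fall is best read as a bound. With day 7 set at the filter level of 4, GPLD1 was at least 24.2-fold lower on day 7 than on day 0 in HE and at least 6.40-fold lower in SE. With all values under 4 raised to 4, an alternative chosen after seeing the data, the differences were -4.60 and -2.68, the 60th and the 371st lowest of 13421. The larger fall in HE is the day 0 difference seen again, because both groups end at the same dim reading, and it was not tested. The levels over the 4 endometrium groups thus order as HE on day 0, SE on day 0, and then both day 7 groups, whose pools overlap.

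Cell markers moved between the days too. The mean of the 13 epithelial markers ran from 10.24 to 10.26 in HE and from 9.89 to 9.98 in SE on day 7, below the day 0 ranges given above. Neutrophil markers ran from 4.73 to 6.58 in HE and from 5.44 to 6.99 in SE, which in SE lies below all SE pools of day 0. Lymphocyte markers ran from 6.88 to 7.32 in HE, above all HE pools of day 0, and from 6.02 to 7.95 in SE. Ciliated cell markers ran from 6.52 to 7.03 in HE and from 6.89 to 6.96 in SE, in SE again below all SE pools of day 0. On day 7 macrophage markers ran from 5.74 to 6.13 in HE, above all HE pools of day 0, and from 5.37 to 6.68 in SE. Stromal fibroblast markers ran from 7.26 to 8.91 and from 7.25 to 8.98. KRT18, a keratin of simple epithelia, fell by 2.16 in HE and by 2.61 in SE (limma adjusted p = 2.0e-05 and 2.0e-06), while CDH1, the epithelial cadherin, rose by 1.48 in HE (limma adjusted p = 8.9e-04). Of the 13 epithelial genes 6 fell and 2 rose in HE, and 10 fell and 2 rose in SE. Over all probe sets 23.2% were called lower and 21.8% higher in HE, and 24.1% lower and 26.0% higher in SE. CLDN5, a tight junction protein of endothelium, was the only 1 of 7 listed endothelial markers kept. It rose by 4.21 in HE and by 3.39 in SE from day 0 means of 2.39 in both, under the filter. CLDN5 passed the filter only through its day 7 pools, so these values are given with no test. The GAPDH control, 3' minus 5', ran from 0.06 to 0.14 in HE on day 0 and from 0.27 to 0.39 on day 7, without overlap. In SE it ran from 0.03 to 0.58 and from 0.22 to 0.57. The cyclophilin and EIF4E controls overlapped between the days in both HE and SE. In HE cyclophilin ran from 0.64 to 0.98 on day 0 and from 0.85 to 1.23 on day 7, and EIF4E from 3.70 to 3.85 and from 3.67 to 3.91. The part of cell makeup or RNA quality in the fall of GPLD1 was not tested.

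**Figure D2:**
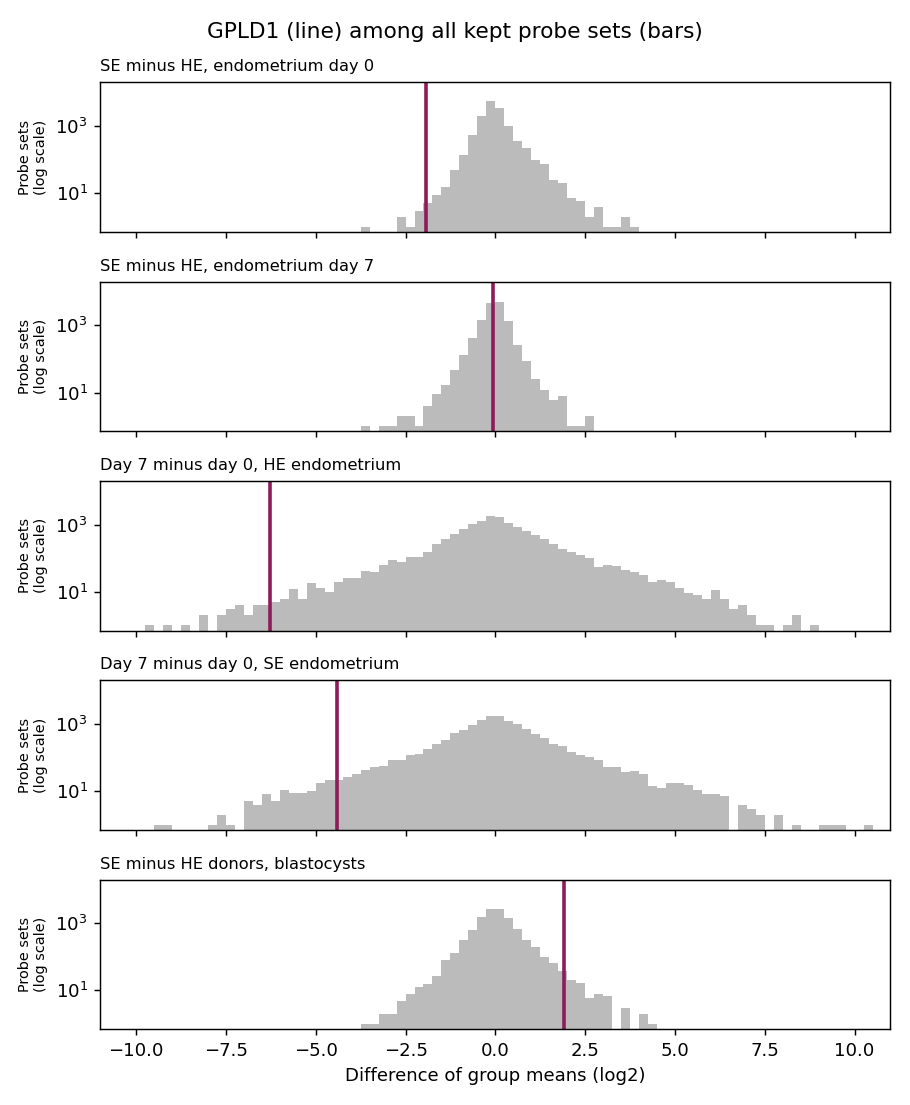
Histograms of the log2 difference of group means over all kept probe sets (grey bars in steps of 0.25, count on a log axis) for 5 contrasts, with GPLD1 as a vertical line. The line sits in the lower tail in both day contrasts (-6.26 and -4.39, from day 7 readings under the filter), at -1.92 on day 0, near 0 on day 7 and at 1.92 in blastocysts.

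In blastocysts GPLD1 read higher in the pools of SE donors, in a contrast that passed no test. It read 6.39 and 6.97 in the 2 HE pools, a mean of 6.68 ± 0.41 (SD, n = 2). In the 3 SE pools it read 8.69, 8.55 and 8.54, a mean of 8.60 ± 0.08 (SD, n = 3). Each SE pool was above each HE pool, with a gap of 1.57 between the nearest. The difference of 1.92 (standard error 0.22), or 3.77-fold, did not pass the test (limma adjusted p = 0.271). limma called 0 of 11014 blastocyst probe sets, or 0%, with 1029 at an unadjusted p under 0.05. GPLD1 had the 75th highest difference and the 19th lowest p, and 12.4% of the probe sets had every SE pool above every HE pool. Leaving out HE replicate 1 gave 1.62 and leaving out HE replicate 2 gave 2.21, each with 1 HE pool left that was assumed to vary like the SE pools.

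The blastocyst pools also differed in other respects along the same line. The GAPDH control, 3' minus 5' probe set, ran from 4.97 to 5.11 in HE and from 5.47 to 5.85 in SE. The mean of 12 of 15 epithelial markers ran from 8.81 to 8.96 in HE and from 9.16 to 9.58 in SE, so both were higher in each SE pool. Of 10 listed blastocyst lineage genes 5 were named on the array and all 5 were kept, among them POU5F1, a factor of pluripotent cells (10.70 ± 0.39, n = 2, in HE and 10.03 ± 0.34, n = 3, in SE), and IFNT2, the trophectoderm's pregnancy signal (9.91 ± 0.78 and 9.50 ± 1.09). Their mean overlapped between the groups, at 9.68 to 10.13 and 9.32 to 9.89. No neutrophil, macrophage, ciliated cell or erythrocyte marker passed the filter in blastocysts. Kept there were 3 of 13 lymphocyte, 2 of 7 endothelial and 5 of 13 stromal fibroblast markers, and the mean of each list overlapped between the groups. The lymphocyte genes GZMB, LCK and ZAP70 differed between SE and HE by -2.59, 3.13 and -0.34, none past the test. Whether RNA quality or cell makeup had a part in the GPLD1 difference was not tested.

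Genes that build, attach and trim the anchor were followed beside other anchor-cutting enzymes, anchored proteins, phospholipase relatives and lipoprotein genes. Over these 7 lists together, 62 genes were measured in endometrium and 48 in blastocysts. limma called 0 of the 62 between SE and HE on day 0 (4 at an unadjusted p under 0.05), 0 on day 7 (4 unadjusted) and 0 of the 48 in blastocysts (6 unadjusted). From day 0 to day 7 it called 32 of the 62 in HE and 33 in SE, against 45.0% and 50.1% of all probe sets.

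Most anchor synthesis genes did not pass the test between the days. Of 11 measured members 1 rose, 2 fell and 8 did not pass in HE, where 21.8% of all probe sets rose and 23.2% fell, with a median difference of -0.20 against -0.03 over all probe sets. PIGC, a subunit of the enzyme that starts the anchor, rose by 0.63 in HE and by 0.56 in SE (limma adjusted p = 0.0165 and 0.0144). MPDU1, needed for use of dolichol-linked mannose, fell by 0.79 and by 0.68 (limma adjusted p = 0.0308 and 0.0324). PIGF, which helps add the phosphoethanolamine bridge, fell by 0.51 in HE (limma adjusted p = 0.0165). In SE 2 rose, 1 fell and 8 did not pass. PIGH, another subunit of the first enzyme, rose by 0.99 there (limma adjusted p = 0.00128).

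Subunits of the transamidase, which attaches the finished anchor, fell or did not pass the test. Of 4 measured subunits 3 fell in HE and 2 in SE, and none rose, beside 23.2% and 24.1% of all probe sets called lower. With 4 genes these counts are a description only. GPAA1 averaged 8.03 ± 0.18 (n = 3) on day 0 and 6.99 ± 0.14 (n = 2) on day 7 in HE, a difference of -1.03 (limma adjusted p = 0.00317). In SE it went from 7.95 ± 0.38 to 6.98 ± 0.09 (n = 3 each), a difference of -0.97 (limma adjusted p = 0.00194). PIGT fell by 0.62 and by 0.90 (limma adjusted p = 0.0470 and 0.00423). PIGS fell by 1.12 in HE (limma adjusted p = 0.00775), and its -0.64 in SE did not pass (limma adjusted p = 0.0514). The catalytic subunit PIGK differed by 0.11 and 0.14, neither past the test. Between SE and HE on day 0 the 4 subunits differed by -0.11 to 0.08.

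Genes of trimming and export likewise fell or did not pass. Of 6 measured genes 3 fell in HE and 4 in SE, with none rising, beside 23.2% and 24.1% of all probe sets called lower and 21.8% and 26.0% called higher. TMED9, a cargo adaptor of the early secretory pathway, fell by 1.04 and by 0.90 (limma adjusted p = 0.00372 and 0.00387). TMED10, its partner, fell by 0.58 and by 0.67 (limma adjusted p = 0.0216 and 0.00503), and TEX2 by 0.79 and by 0.85 (limma adjusted p = 0.00588 and 0.00182). TMED2, another member of that family, fell by 0.46 in SE (limma adjusted p = 0.0207). PGAP2, which remodels the lipid of the anchor, gave 0.28 and 0.42, neither past the test.

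Of 7 other enzymes listed for cutting GPI anchors, 2 were measured in endometrium, and neither was called lower. GDE1, a glycerophosphodiester phosphodiesterase listed with its GPI-cutting relatives, rose by 0.95 in HE and by 0.93 in SE (limma adjusted p = 7.84e-04 and 3.40e-04). PGAP6, a phospholipase that sheds some GPI proteins, gave 0.70 and 0.49, neither past the test. GDPD2, a surface enzyme that cuts anchors by another bond, stayed at or below 2.03 in every endometrium pool and differed by 0.29 between the blastocyst groups (8.28 ± 0.53, n = 2, in HE and 8.57 ± 0.07, n = 3, in SE; limma adjusted p = 0.681).

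The anchored surface proteins, possible substrates of GPLD1, were called in both directions between the days. Of 23 measured 9 rose, 5 fell and 9 did not pass in HE, and the numbers were the same in SE, where 9 genes rose and 3 fell in both. Over all probe sets 21.8% rose and 23.2% fell in HE, and 26.0% rose and 24.1% fell in SE, so the count of falls is near the background. The median difference was 0.50 in HE and 0.34 in SE, against -0.03 and 0.01 over all probe sets. PLAUR, the urokinase receptor, averaged 6.92 ± 0.62 (n = 3) on day 0 and 3.16 ± 0.28 (n = 2) on day 7 in HE, a difference of -3.76. In SE it fell by 4.70, from 8.35 ± 0.31 to 3.65 ± 0.51 (n = 3 each). CD14, the endotoxin co-receptor of myeloid cells, fell by 2.41 and by 3.99 (limma adjusted p = 0.0266 and 8.36e-04). It is also a listed macrophage marker, and of the 10 measured it was the only 1 below 0 in each day contrast, with 9 above 0. PRSS8, a membrane serine protease of epithelia, fell by 1.03 and by 1.70 (limma adjusted p = 0.0425 and 0.00168). The day 7 means of PLAUR lie under the filter, and with values under 4 raised to 4 its differences were -2.92 and -4.27. Without its day 0 pools PLAUR would not have passed the endometrium filter, so its day differences are given with no test. It is among the genes counted above as falling in both groups.

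EFNA1, an ephrin ligand, rose by 2.42 in HE and by 2.53 in SE (limma adjusted p = 1.14e-06 and 3.09e-07). VNN2, a pantetheinase, rose by 3.47 and by 1.62 (limma adjusted p = 2.04e-04 and 0.00816). ALPL, the tissue-nonspecific alkaline phosphatase and a common test substrate for anchor cutting, went from 10.61 ± 0.24 (n = 3) to 11.92 ± 0.13 (n = 2) in HE and from 10.19 ± 0.36 to 11.75 ± 0.20 (n = 3 each) in SE. It rose by 1.32 and by 1.56 (limma adjusted p = 0.00122 and 1.60e-04). LY6E, an interferon-inducible membrane protein, rose by 1.38 and by 1.47 (limma adjusted p = 8.88e-04 and 2.32e-04).

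Some anchored proteins passed in 1 status group. CD55, which speeds the decay of complement convertases, fell by 1.85 in SE (limma adjusted p = 0.00378), while its -0.98 in HE did not pass (limma adjusted p = 0.105). PRNP, the prion protein, fell by 1.25 in HE (limma adjusted p = 0.00797) and gave -0.64 in SE (limma adjusted p = 0.0749). These differences between HE and SE were not tested. NT5E, the ectoenzyme that makes adenosine (2.16 and 0.83), and MSLN, mesothelin (0.27 and 0.68), did not pass in either. DPEP1, a membrane dipeptidase, was measured only in blastocysts, at 7.47 ± 0.17 (n = 2) in HE and 6.85 ± 0.29 (n = 3) in SE (limma adjusted p = 0.525). CD59 and FOLR1 had no probe set named by a single symbol.

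**Figure D3:**
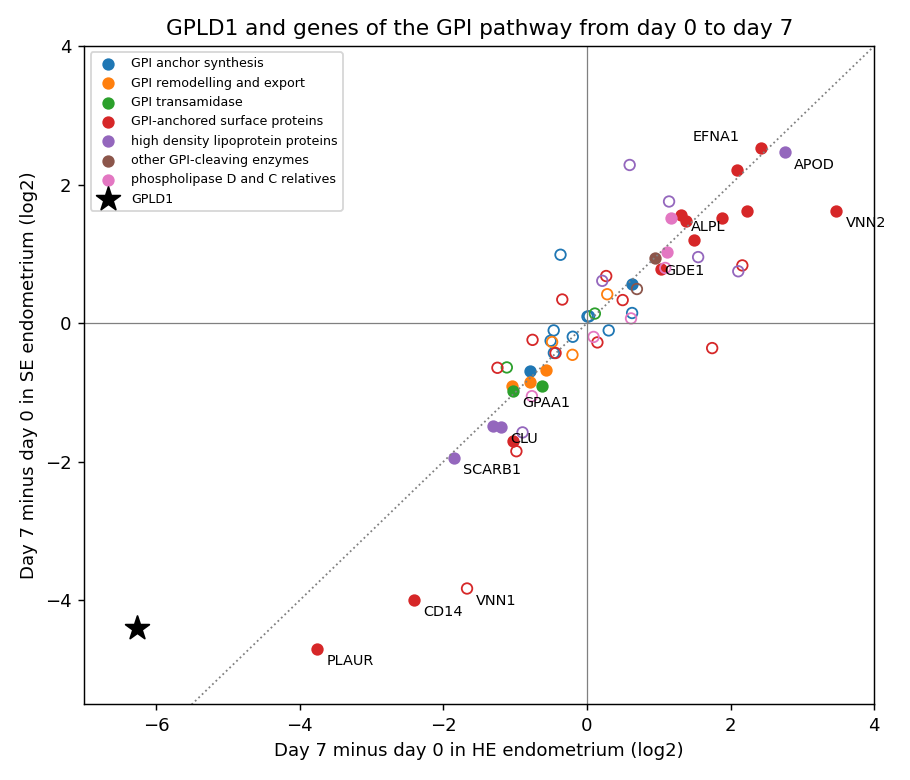
Difference between day 7 and day 0 in HE endometrium (horizontal axis, log2) against the same difference in SE endometrium (vertical axis, log2) for 62 genes of 7 lists, coloured by list, with GPLD1 as a star. Filled points passed limma's test in the same direction in both, open points did not. As deposited, GPLD1 lies lowest on the horizontal axis and PLAUR (-4.70) on the vertical one; with values under 4 raised to 4, 0 listed genes lie below GPLD1 in HE and 3 in SE (PLAUR, CD14 and VNN1).

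On day 0 the anchored proteins differed between SE and HE by -0.78 to 1.80, with 12 of 23 above 0. VNN2 averaged 8.60 ± 0.66 in HE and 10.40 ± 0.67 in SE (n = 3 each; limma adjusted p = 0.435), and PLAUR 6.92 ± 0.62 and 8.35 ± 0.31 (n = 3 each; limma adjusted p = 0.473). These had the smallest p of the list and are given as values. In blastocysts THY1, a surface glycoprotein of stromal and other cells, gave the smallest p of the 14 measured members (9.67 ± 0.09, n = 2, in HE and 8.82 ± 0.32, n = 3, in SE; limma adjusted p = 0.425).

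Genes listed for high density lipoprotein, the receptor SCARB1 among them, and the other phospholipases were followed as well. Of 10 measured genes of the lipoprotein list, not all of which encode proteins of the particle, 3 rose and 3 fell in each status group. The shares over all probe sets are given above. CLU, the secreted chaperone clusterin, fell by 1.19 and by 1.50 (limma adjusted p = 1.56e-04 and 1.26e-05), PON2, a lactonase, by 1.31 and by 1.48 (limma adjusted p = 0.00270 and 5.32e-04), and the lipoprotein receptor SCARB1 differed by -1.85 and -1.94 (limma adjusted p = 0.00575 and 0.00193). APOD, a lipocalin, rose by 2.76 and by 2.46 (limma adjusted p = 0.0422 and 0.0387). APOA1, the main structural protein of these particles, differed by 2.28 in SE, from a day 0 mean under the filter, 2.44. It gave 0.59 in HE. With values under the filter raised to the filter level, the APOA1 differences were 0.86 in SE and 0 in HE. The SE pools taken at flushing averaged 4.72 ± 1.05 (n = 3), and APOA1 passed the endometrium filter only through them. Much of the 2.28 thus lies under the filter. The day differences of APOA1 are therefore given with no test, though it is among the genes counted above as rising in SE. In blastocysts APOA1 averaged 5.09 ± 0.40 (n = 2) in HE and 7.39 ± 1.16 (n = 3) in SE, not past the test (limma adjusted p = 0.478).

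Among 6 measured relatives of phospholipase C and D, 2 rose in HE and 2 rose and 1 fell in SE. Over all probe sets 21.8% rose and 23.2% fell in HE, and 26.0% rose and 24.1% fell in SE. With 6 genes these counts are a description only. PLCG1, a signalling phospholipase C, rose by 1.17 and by 1.52 (limma adjusted p = 1.94e-04 and 1.23e-05), and PLCD3, another isoform, by 1.11 and by 1.03 (limma adjusted p = 0.00161 and 0.00107). PLCD1 fell by 1.05 in SE (limma adjusted p = 0.0410). PLD3, a lysosomal relative of phospholipase D, gave 0.09 and -0.20, neither past the test.

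The genes whose level tracked GPLD1 most closely over the 11 endometrium pools were found by Pearson's r, as a description with no p. The pools fall into day 0 and day 7, which alone sets much of any r. Of 6809 other genes, 848 had an r above 0.9 and 670 an r below -0.9. The closest was PRIM2, a subunit of the DNA primase, with an r of 0.994. Its group means were 5.38 in HE and 4.97 in SE on day 0 and 3.90 and 3.89 on day 7, the last pair under the filter. After each group's mean was taken off, its r with GPLD1 was 0.887, but in SE on day 7, where both genes lie under the filter, the pool highest in GPLD1 was the lowest in PRIM2.

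Next came MBTPS2, a membrane protease that activates transcription factors of sterol and stress responses (r = 0.989), and PMVK, an enzyme of the mevalonate pathway (r = 0.988). ANKRD50, an endosomal trafficking protein, and ANAPC10, a subunit of the anaphase-promoting complex, each had an r of 0.984. Within groups their r was 0.524, 0.767, 0.491 and 0.171. Day 0 differences between SE and HE in these 5 genes ran from -0.76 to -0.42. From day 0 to day 7 the 5 genes differed by -3.42 to -1.48 in HE and by -2.99 to -1.07 in SE. Steps like those of GPLD1 follow in large part from picking the genes by r over these same pools.

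The most opposite gene was RNF7, a RING subunit of cullin ubiquitin ligases, with an r of -0.988. SLC25A29, a mitochondrial carrier of basic amino acids, ITPK1, an inositol phosphate kinase, CCDC115, a factor of proton pump assembly, and PRAF2, a membrane protein of the secretory pathway, had an r of -0.980, -0.980, -0.979 and -0.977. Within groups the r of RNF7 was -0.697 and that of PRAF2 was 0.350, so a like pattern over the days did not carry over to the pools of a group in each case.

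**Figure D4:**
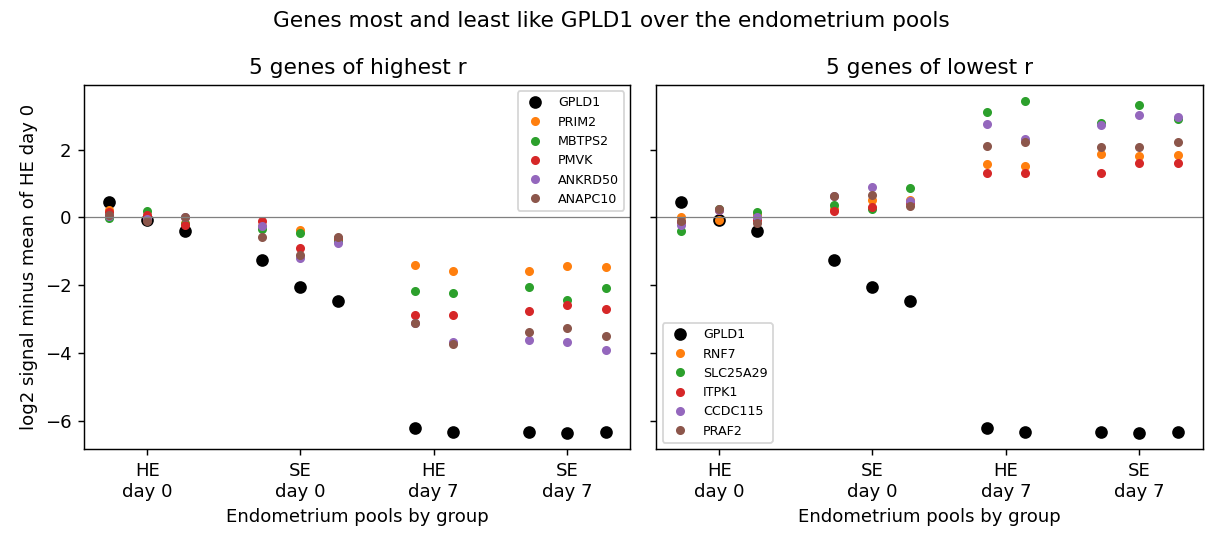
Log2 signal minus the mean of the HE day 0 pools (vertical axis) for GPLD1 (black) and the 5 genes of highest r (left) and of lowest r (right), in each of 11 endometrium pools by group (horizontal axis). The 5 genes on the left step down from HE to SE on day 0 and again to day 7, by less than GPLD1, and the 5 on the right step up. The genes were picked by r over these same pools, so such steps follow in large part from the choice.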

How the data were processed

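RNA amplified from 15 ng was read on Affymetrix bovine arrays in 16 pools. The authors deposited log2 signals per probe set; GCRMA and limma are named, with no version or role, per the submitters' processing notes. Blastocyst and endometrium columns have distributions of their own, so no level was compared across tissues. Median log2 signals were 4.18 to 4.30 in endometrium and 3.08 to 3.12 in blastocysts. After 112 controls were left out, a probe set was kept if 2 or more arrays of its tissue read above 4.

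R 4.3.3 with limma 3.58.1 fitted group means on the 11 endometrium arrays and on the 5 blastocyst arrays, two-sided, with Benjamini-Hochberg adjustment over all kept probe sets and a threshold of 0.05. The script was tested on simulated data. Figures used Python 3.11.15 and matplotlib 3.10.9. Each gene of a list was read by its kept probe set of highest mean. Genes named are GPLD1, the 5 most and 5 least like it by r, list members past the threshold (at most 4 per direction) or else those of smallest p, and 12 anchored proteins and the transamidase subunits that the rule lists; some genes it allows are not named. The member and the lists were chosen with earlier results of these data known; blastocyst lineage genes and chromosomal neighbours were added after the values had been seen. Alternatives are in the closing section. No sequence was used here.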

Additional observations from a re-analysis of the deposited data

Results flagged for a closer look

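The difference between SE and HE in GPLD1 had opposite signs in day 0 endometrium and in blastocysts. It was -1.92 in day 0 endometrium, all SE pools lying lower, and 1.92 in day 7 blastocysts, all SE pools lying higher. In endometrium of day 7, the day of the blastocysts, it was -0.06, with both groups under the filter. Blastocysts were sorted by donor status at flushing and day 0 endometrium by status at insemination, and nothing here links the pools to the same cows. The tissues differ in day and may have been normalized apart, and the difference between these effects was not tested. The first value is taken as the one that chose the gene, and the second did not pass its own test (limma adjusted p = 0.271).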

How the results depend on the processing

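GPLD1 kept its direction in HE and SE between the days and in blastocysts under every alternative run. In blastocysts, where it was tested, it did not pass the threshold under any of them. Over the pools left out in turn the day 0 difference of SE and HE ran from -2.25 to -1.65, the fall from day 0 to day 7 from -6.46 to -6.03 in HE and from -4.67 to -4.06 in SE, and the blastocyst difference from 1.62 to 2.21, with adjusted p over all blastocyst alternatives from 0.186 to 0.566. Raising values under 4 to 4, chosen after seeing the data, gave falls of -4.60 and -2.68. The day 7 difference of SE and HE, -0.06, lies under the filter; it was 0.10 with the replicate block, ran from -0.11 to 0.0033 over pools left out, and has no value with dim values raised or with only those 2 groups fitted, where GPLD1 is not kept. The replicate numbers share only a number: same-numbered pools had deviations correlated at -0.27 to 0.24 over 15 pairs, 2 of them above 0.1. Of 13421 probe sets limma called 3 on day 0, but 7 with no filter, 0 with only the 2 groups, 0 with the replicate block and 0 to 11 over pools left out, the highest without day 0 SE replicate 1; on day 7 it called 0, but 10 with no filter and 0 to 2 over pools left out. Pathway genes called in HE between the days numbered 32, and 21 to 35 over pools left out, the lowest without day 7 HE replicate 2. Groups of 2 or 3 pools limit the precision, and 1 probe set reads the gene.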

Other observations

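The protein-coding neighbours of GPLD1 on its chromosome, 3 on each side in RefSeq's order, were looked at after the values had been seen. Of these 6 genes 3 were kept in both tissues. ALDH5A1, which breaks down the transmitter GABA's product succinic semialdehyde and lies next to GPLD1, fell from day 0 to day 7 (-2.11 in HE and -2.51 in SE; limma adjusted p = 0.0172 and 0.00342). MRS2, the mitochondrial magnesium channel on the other side, gave -0.12 and 0.26, neither past the test. TDP2, a DNA repair phosphodiesterase, fell by 0.89 in HE (limma adjusted p = 9.66e-04) and gave -0.27 in SE (limma adjusted p = 0.125). Between SE and HE on day 0 the 3 genes differed by -0.51 to -0.24, and in blastocysts MRS2 gave -0.80 and ALDH5A1 0.83, none past the test.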
